A study of Mus musculus with 6 samples.

Results

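Claudins and other cell adhesion genes of the mammary epithelium were followed in GFP-positive (GFPpos) and GFP-negative (GFPneg) mammary basal cells of pubertal mice. The set holds 10 genes of 51826 gene symbols counted. Its members were chosen by symbol, and each had a row in the deposited counts. They are the claudin genes Cldn1, Cldn3, Cldn4 and Cldn7, the tight junction gene Ocln, the cadherin genes Cdh1 and Cdh3, and the surface protein genes Epcam, Cd24a and Muc1. GFPpos and GFPneg cells came from the same mice, all of the SMAcreERT2/N1ICD genotype on the C57B6/N strain, at postnatal day 24. All mice received 1 dose of tamoxifen at postnatal day 21, 72 hours before cell isolation. Cre recombinase fused to the tamoxifen-responsive ERT2 domain is driven by the smooth muscle actin promoter, and N1ICD is the intracellular, constitutively active form of Notch1. Each of 3 replicates was a pool of 2 to 3 mice from which both fractions were sorted, giving 6 libraries, and RNA was total RNA. Both fractions carried both alleles and the tamoxifen treatment, so that an effect of the allele cannot be told apart from other ways in which labelled and unlabelled cells differ. The labels do not say what carries GFP, so that GFPpos and GFPneg name the sorted fractions here and not a known state of the allele.

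Epithelial cells are joined by tight junctions, which seal the space between neighbours, and by adherens junctions, which hold them together. Claudins form the strands of the tight junction and set which ions pass, and occludin, encoded by Ocln, is a second membrane protein of these strands. E-cadherin (Cdh1) is the main adherens junction protein of epithelia. In the mammary gland tight junctions lie between luminal cells, while P-cadherin (Cdh3) is known as a cadherin of the basal and myoepithelial layer, so that Cdh3 is not a luminal gene in spite of its place in the set. EpCAM (Epcam) and CD24 (Cd24a) are surface proteins used to sort luminal from basal mammary cells, and MUC1 is a transmembrane mucin of the apical luminal surface.

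The libraries differed in depth, which bears on the low members of the set. GFPneg replicate 1 held 611465 gene counts over 7454 genes, against 9912610 to 16043492 counts in the other 5 libraries. Of its gene counts 69.2% lay in 5 abundant noncoding features, against 22.7% to 34.7% elsewhere. A single count there equalled 3.28 CPM (counts scaled to the TMM-adjusted library size), against 0.0513 to 0.0911 CPM elsewhere. A count of 0 in GFPneg replicate 1 therefore allowed a level of up to 9.84 CPM (3 counts, counting error only). The Notch1 gene itself lay between 423 and 506 CPM in GFPpos and between 105 and 267 CPM in GFPneg libraries (log2 fold change 1.32, SE 0.41, edgeR adjusted p = 0.625). In bulk RNA, fewer cells of a type and less RNA per cell cannot be told apart.

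Cldn3 and Cldn7 were the members whose groups did not overlap, without passing the test over all genes. Of all tested genes, 9.53% were likewise higher in GFPpos without overlap. Cldn4, the close neighbour of Cldn3, overlapped between the groups. The bases that precede the start sites of Cldn3, Cldn7 and Cldn4 are shown so that the genes with like values can be set beside the one without. Each run is the 250 bases before a RefSeq start site (GRCm38.p6, the assembly of mm10), 5′ to 3′ on the gene's strand. Capitals mark a match to the E box CACCTG.
Cldn3, chr5:134985964-134986213, plus strand: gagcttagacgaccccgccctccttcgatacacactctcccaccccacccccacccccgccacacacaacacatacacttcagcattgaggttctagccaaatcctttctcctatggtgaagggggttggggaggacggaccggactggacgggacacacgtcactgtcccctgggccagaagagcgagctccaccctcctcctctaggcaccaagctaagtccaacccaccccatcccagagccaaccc
Cldn7, chr11:69964529-69964778, plus strand: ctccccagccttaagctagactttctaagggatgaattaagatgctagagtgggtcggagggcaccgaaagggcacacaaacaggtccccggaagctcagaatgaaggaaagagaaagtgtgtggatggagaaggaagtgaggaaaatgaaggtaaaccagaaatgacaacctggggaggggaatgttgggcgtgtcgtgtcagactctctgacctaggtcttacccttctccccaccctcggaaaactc
Cldn4, chr5:134946935-134947184, minus strand: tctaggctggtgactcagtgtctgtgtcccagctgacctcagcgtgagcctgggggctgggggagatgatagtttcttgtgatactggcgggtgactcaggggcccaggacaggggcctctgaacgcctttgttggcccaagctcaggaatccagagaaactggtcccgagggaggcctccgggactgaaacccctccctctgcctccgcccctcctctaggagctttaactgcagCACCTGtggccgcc

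A set of 3 motifs was searched on both strands of these windows. They were CACCTG, an E box bound by Snail and Zeb repressors, TGGGAA, the core of the RBPJ site of Notch signalling, and AACNNGTT, a core of grainyhead-like factors. The shown windows of Cldn3 and Cldn7 held 0 matches to any of them. Cldn4 held 1 CACCTG, which began 14 bases before the start site. Among 32851 windows of this length, 17.2% held CACCTG, 21.6% held TGGGAA and 3.64% held AACNNGTT. Of the other windows of the set, those of Epcam and Muc1 held 2 CACCTG each, and that of Muc1 also 1 AACNNGTT. Cldn7 and Ocln each have a second RefSeq start whose window overlaps an annotated exon. These held 2 CACCTG each, and that of Cldn7 also 1 TGGGAA, while the first Ocln window and that of Cldn1 held none. No match overlapped another. The promoters of Cdh1, Cdh3 and Cd24a are named only.

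The tight junction claudin genes Cldn3 and Cldn7 had higher values in GFPpos than in GFPneg cells in each of the 3 pairs, without passing the test over all genes. Of all tested genes, 21.5% were higher in all 3 pairs. Cldn3, a sealing claudin of many epithelia, stood at 12.8, 18.1 and 11.2 CPM in GFPpos replicates 1, 2 and 3, against 0, 4.11 and 2.46 CPM in GFPneg replicates 1, 2 and 3. Cldn7, a claudin also found along the lateral membrane, stood at 14.5, 11.4 and 11 CPM in GFPpos libraries, against 0, 4.21 and 1.55 CPM in GFPneg libraries. For both genes every GFPpos library lay above every GFPneg library, as it did for 9.53% of all tested genes. The GFPpos values of both lay between 11 and 18.1 CPM. In replicate 1 the GFPneg library had 0 counts of either gene. The lower end of the exact 95% interval of the GFPpos to GFPneg ratio was 1.04 for Cldn3 and 1.185 for Cldn7 (counting error only). In that pair all tested genes had a median of 1.35 on the log2 scale, so that replicate 1 shows little that is particular to these 2 genes.

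In the deeper pairs the ratio of GFPpos to GFPneg rested on more counts. Cldn3 had 232 counts in GFPpos and 80 in GFPneg cells of replicate 2 (ratio 4.40, 95% exact interval 3.40 to 5.74, counting error only) and 216 and 27 counts in GFPpos and GFPneg cells of replicate 3 (4.56, 3.05 to 7.08). Cldn7 had 147 counts in GFPpos and 82 in GFPneg cells of replicate 2 (2.72, 2.06 to 3.61) and 212 and 17 counts in GFPpos and GFPneg cells of replicate 3 (7.11, 4.33 to 12.4). Averaged over libraries, Cldn3 stood at 14.0 ± 3.58 CPM in the GFPpos and 2.19 ± 2.07 CPM in the GFPneg fraction, and Cldn7 at 12.3 ± 1.90 CPM in the GFPpos and 1.92 ± 2.13 CPM in the GFPneg fraction (SD, n = 3 each). The fold changes were alike, with a log2 value of 2.31 (SE 1.00) for Cldn3 and 2.30 (SE 1.04) for Cldn7. Unadjusted p was 0.0340 and 0.0423, and adjusted p 0.850 and 0.921 (edgeR's quasi-likelihood test, Benjamini-Hochberg over 13873 genes). This fit does not use the pairing of the libraries. With the replicate number as a block, which does, the same test gave unadjusted p of 0.0683 for Cldn3 and 0.0771 for Cldn7.

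**Figure D1:**
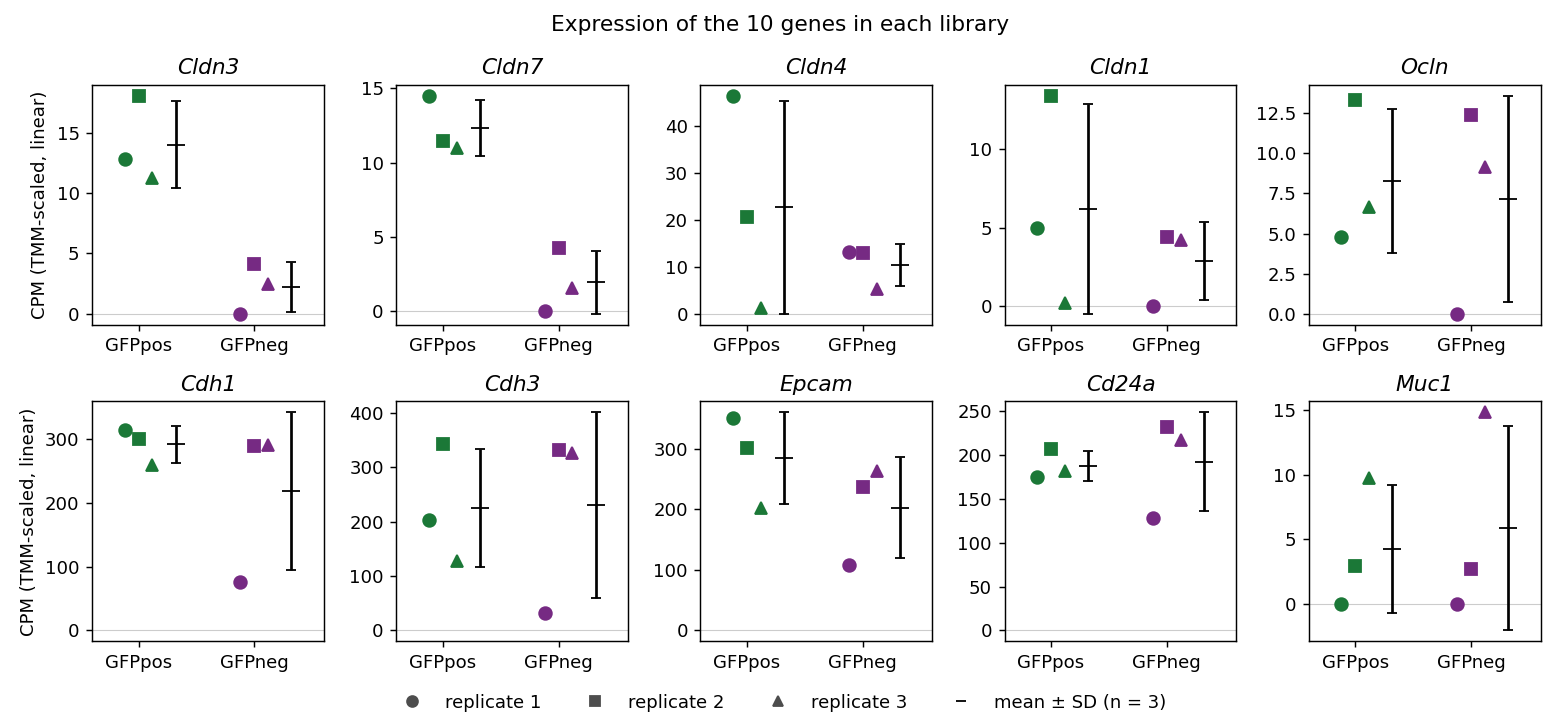
Level of each of the 10 genes in CPM (TMM-scaled, linear axis, own scale per panel) in the GFPpos (green) and GFPneg (purple) libraries, with replicates 1, 2 and 3 as circle, square and triangle and the mean ± SD beside them. Cldn3 and Cldn7 are the panels in which the groups do not overlap, and 9.53% of all tested genes were likewise higher in GFPpos without overlap. GFPneg replicate 1 is the lowest library for Cdh1, Cdh3, Epcam and Cd24a.

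Cldn3 lies on chromosome 5 (134986214 to 134987472, plus strand, mm10) and overlaps Wbscr25, an antisense gene on the opposite strand. The strand setting of the counting is not given, so that reads of the pair cannot be told apart. Wbscr25 itself had 0 counts in each GFPpos library and 0, 3 and 16 counts in GFPneg replicates 1, 2 and 3. Cldn7 (chromosome 11, 69964779 to 69967885, plus strand) overlaps no other annotated gene.

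Cldn4 and Cldn1 did not follow Cldn3 and Cldn7. Cldn4 lies 39.3 kb from Cldn3 on chromosome 5 (134945119 to 134946934, minus strand) and encodes a claudin known to limit the passage of sodium. It had 46.3, 20.5 and 1.30 CPM in GFPpos replicates 1, 2 and 3, against 13.1, 13.0 and 5.38 CPM in GFPneg libraries. Cldn1, whose product is needed for the water barrier of the epidermis, had 4.98, 13.4 and 0.208 CPM in GFPpos libraries, against 0, 4.42 and 4.19 CPM in GFPneg libraries. Both genes were lower in GFPpos replicate 3 than in any other GFPpos library, and their groups overlapped. The direction also turned between the pairs. Cldn4 was 3.53-fold higher in GFPpos cells in replicate 1 (511 counts in GFPpos and 4 in GFPneg cells, interval 1.37 to 13.0), 1.58-fold higher in replicate 2 (1.32 to 1.88), and had a GFPneg to GFPpos ratio of 4.14 in replicate 3 (2.55 to 6.90). Cldn1 was 3.03-fold higher in GFPpos cells in replicate 2 (172 counts in GFPpos and 86 in GFPneg cells, 2.33 to 3.97). In replicate 3, with 4 counts in GFPpos and 46 in GFPneg cells, its GFPneg to GFPpos ratio was 20.2 (7.37 to 77.2). In replicate 1, Cldn1 had 55 counts in GFPpos and 0 in GFPneg cells, which gives no bound at the depth of the GFPneg library. The spread within GFPpos exceeded the difference between the groups. Log2 fold changes were 1.17 (SE 1.02) for Cldn4 and 0.82 (SE 1.34) for Cldn1 (edgeR adjusted p = 1 for both).

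The make-up of the claudin counts within a library needs no scaling between libraries, and it changed between the pools. In GFPpos replicates 1, 2 and 3, Cldn3 and Cldn7 together made up 34.7% (95% Wilson interval 31.6% to 38.0%), 46.5% (43.1% to 49.9%) and 93.7% (91.0% to 95.6%) of the counts of the 4 claudin genes. In GFPneg replicates 2 and 3 they made up 32.3% (28.3% to 36.5%) and 29.5% (22.8% to 37.3%). GFPneg replicate 1 had 4 claudin counts in all, each of Cldn4, too few for a share. Within replicate 2 the share was higher in GFPpos cells, and within replicate 3 it was higher by a wider margin. Cldn3 and Cldn7 are the claudins given above as higher in each pair. A higher share in GFPpos cells thus partly restates those values and adds no separate support. In GFPpos replicate 3 Cldn4 made up 5.47% (3.73% to 7.95%) and Cldn1 0.875% (0.341% to 2.23%) of the claudin counts. In GFPneg replicate 3 the shares were 39.6% (32.1% to 47.6%) and 30.9% (24.0% to 38.7%).

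**Figure D2:**
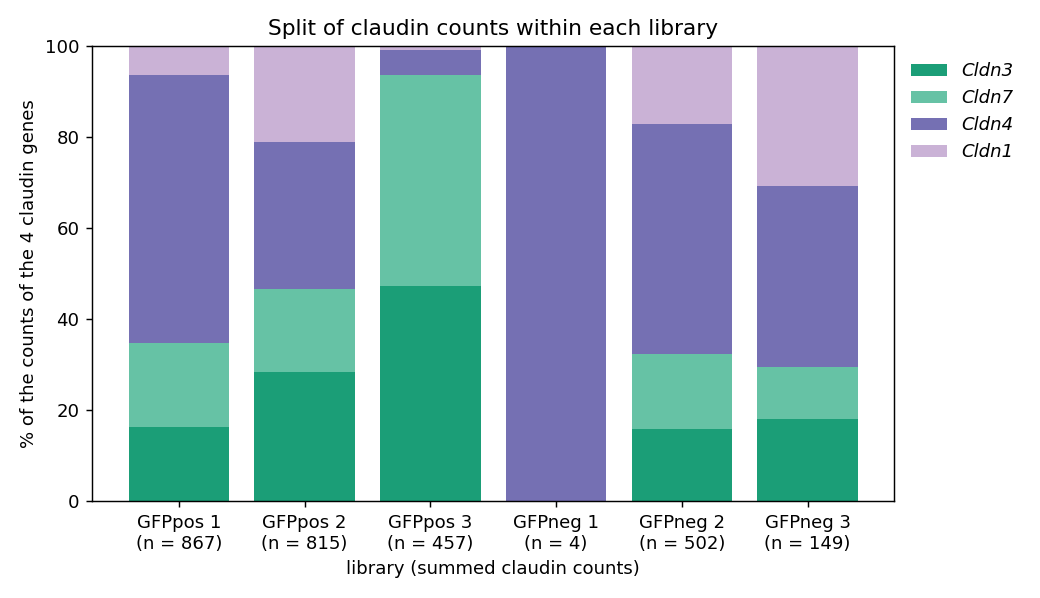
Share (%) of the summed counts of Cldn1, Cldn3, Cldn4 and Cldn7 that fell on each gene, by library, with the summed counts under each bar. Cldn3 and Cldn7 fill 93.7% of the bar of GFPpos replicate 3, and the GFPneg replicate 1 bar rests on 4 counts.

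Ocln was measured at a low level and did not separate the groups. It stood at 4.80, 13.3 and 6.64 CPM in GFPpos libraries, against 0, 12.4 and 9.11 CPM in GFPneg libraries, and the deeper pairs gave ratios of 1.08 (0.879 to 1.31) and 0.729 (0.557 to 0.957). The log2 fold change was -0.00041 (SE 1.00, edgeR adjusted p = 1). The sign of this value turned with the scaling of the libraries, and no direction is given for this gene.

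The cadherin genes were abundant in both fractions. Cdh1, which encodes E-cadherin (chromosome 8, 106603351 to 106670246, plus strand), stood at 315, 301 and 260 CPM in GFPpos libraries, against 75.4, 290 and 290 CPM in GFPneg libraries. Apart from GFPneg replicate 1, in which Cdh1 had 23 counts, the libraries lay close together. The GFPpos to GFPneg ratio was 1.04 (0.997 to 1.08) in replicate 2 and 0.896 (0.857 to 0.937) in replicate 3. The log2 fold change of Cdh1 was 0.40 (SE 0.47) over 6 libraries and 0.03 (SE 0.25) without GFPneg replicate 1 (edgeR adjusted p = 1 and 0.995). Cdh3 lies 46.1 kb from Cdh1 on chromosome 8 (106510891 to 106557297, plus strand). Its level was 203, 342 and 128 CPM in GFPpos libraries, against 32.8, 332 and 326 CPM in GFPneg libraries. Cdh3 was thus alike in both fractions of replicate 2, with a ratio of 1.03 (0.992 to 1.07). In replicate 3 it was lower in GFPpos cells, with a ratio of 0.394 (0.374 to 0.415), and in replicate 1 it was higher (6.18, 3.35 to 12.9, with 10 counts in the GFPneg library). Over 6 libraries the log2 fold change was -0.06 (SE 0.61), and without GFPneg replicate 1 it was -0.53 (SE 0.36, edgeR adjusted p = 0.792).

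Ratios between members within a library did not separate the fractions either. There were 0.642, 1.14 and 0.493 counts of Cdh3 per count of Cdh1 in GFPpos replicates 1, 2 and 3, against 0.435, 1.15 and 1.12 in GFPneg libraries. The difference of mean log2 ratios was -0.24, with pairs at 0.49, -0.01 and -1.19 (exact permutation test over 6 libraries, two-sided p = 0.9). For the summed counts of Cldn3, Cldn4 and Cldn7 relative to Cdh3, the log2 ratio was -2.23 ± 0.68 in GFPpos and -3.40 ± 2.04 in GFPneg cells (SD, n = 3 each, exact permutation p = 0.5). This claudin ratio was higher in GFPpos cells in replicates 2 and 3, by 1.18 and 2.66 on the log2 scale, and not in replicate 1, at -0.32. The log2 ratio of Epcam to Cdh1 was -0.07 ± 0.26 in GFPpos and 0.02 ± 0.42 in GFPneg cells (SD, n = 3 each, exact permutation p = 0.8). Adjusted over the 3 ratios each p was 0.9, and 3 libraries against 3 cannot give a p below 0.1.

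Epcam and Cd24a were high in every library. Epcam (chromosome 17, 87635979 to 87651129, plus strand), which encodes an adhesion protein that binds claudin-7, stood at 350, 301 and 202 CPM in GFPpos libraries, against 108, 237 and 263 CPM in GFPneg libraries. The GFPpos values fell on both sides of those of GFPneg replicates 2 and 3. The pairs gave ratios of 3.24 (2.30 to 4.71, 33 GFPneg counts), 1.27 (1.22 to 1.33) and 0.767 (0.731 to 0.805), and the log2 fold change was 0.47 (SE 0.43, edgeR adjusted p = 1). Cd24a (chromosome 10, 43578284 to 43584265, plus strand), which encodes a small glycosylphosphatidylinositol-anchored glycoprotein, differed little between the fractions. It had 175, 207 and 182 CPM in GFPpos libraries, against 128, 232 and 218 CPM in GFPneg libraries, with a log2 fold change of -0.05 (SE 0.40, edgeR adjusted p = 1). In replicate 1 its ratio was 1.37 (0.996 to 1.93, 39 GFPneg counts). In replicates 2 and 3 it was slightly lower in GFPpos cells, with ratios of 0.895 (0.8525 to 0.939) and 0.836 (0.7935 to 0.881). Without GFPneg replicate 1 its log2 fold change was -0.24 (SE 0.25). Copies of Cd24a elsewhere in the genome were not examined here, and how reads with several alignments were handled is not given.

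Muc1 differed more between pools than between fractions. It had 0, 2.96 and 9.76 CPM in GFPpos replicates 1, 2 and 3, against 0, 2.67 and 14.9 CPM in GFPneg replicates 1, 2 and 3. Within pairs the values were close, with a ratio of 1.11 (0.709 to 1.72) in replicate 2 and 0.657 (0.530 to 0.816) in replicate 3, and no count in either fraction of replicate 1. In GFPpos replicate 1 a count of 0 allowed a level of up to 0.272 CPM, below both fractions of the other pools. The log2 fold change was -0.65 (SE 1.45, edgeR adjusted p = 1).

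Scaled by exon length, the members fell into a high and a low set. In GFPpos libraries Epcam, Cd24a, Cdh1 and Cdh3 lay between 29.2 and 160 CPM per kb of exon, and the 4 claudin genes, Ocln and Muc1 between 0 and 25.5 CPM per kb. In GFPneg replicates 2 and 3 the same genes lay between 63.3 and 120.0 CPM per kb and between 0.795 and 7.18 CPM per kb. Epcam had the highest length-scaled mean, at 130 ± 34.4 CPM per kb in GFPpos and 92.3 ± 37.8 in GFPneg cells (SD, n = 3 each). It was followed by Cd24a (72.9 ± 6.65 in GFPpos, 74.6 ± 21.8 in GFPneg), Cdh1 (63.9 ± 6.26 in GFPpos, 47.8 ± 27.1 in GFPneg) and Cdh3 (51.2 ± 24.8 in GFPpos, 52.5 ± 39.0 in GFPneg), which did not differ from one another beyond their spread. Among the low members, Cldn4 (12.5 ± 12.4 CPM per kb in GFPpos, 5.79 ± 2.45 in GFPneg) and Cldn3 (11.1 ± 2.85 in GFPpos, 1.74 ± 1.64 in GFPneg) lay within each other's spread in GFPpos cells. Cldn7 followed at 6.32 ± 0.979 CPM per kb in GFPpos and 0.985 ± 1.09 in GFPneg cells, and Ocln, Muc1 and Cldn1 lay at 1.96, 1.81 and 1.28 CPM per kb in the mean of GFPpos cells. The 4 highest genes were the same in every library and included Cdh3, so that the levels do not set the set apart as luminal. In GFPneg replicate 1 there was no clear gap, with Cdh3 at 7.48 CPM per kb (10 counts) and Cldn4 at 7.225 CPM per kb (4 counts).

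Of the 10 members, all of which passed the low count filter, 0 passed the threshold in either direction (edgeR adjusted p below 0.05). Over all 13873 genes 8 (0.0577%) were higher and 1 (0.00721%) was lower. With the replicate number as a block, 0 members passed, against 0.31% of all genes higher and 0.13% lower. Without GFPneg replicate 1, 0 members passed, against 0.412% higher and 0.19% lower. DESeq2 (0.393% of all genes higher, 0.378% lower) and limma-voom (0.389% higher, 0.173% lower) also called 0 members. A p that misses the threshold does not show that the fractions were alike. At an unadjusted p below 0.05, 2 members were higher (Cldn3 and Cldn7) and 0 lower, against 2.38% of all genes higher and 2.88% lower. Those were also the 2 members whose groups did not overlap, against 9.53% of all genes higher without overlap and 3.63% lower. They were the 2 of 10 members higher in all 3 pairs, a share near that of all genes (21.5% higher and 8.07% lower in all 3 pairs). The median log2 fold change was 0.43 over the members and 0.15 over all genes, and 0.12 and 0.04 without GFPneg replicate 1. Taken pair by pair (log2 of CPM + 1, pairs 1 to 3), the members had medians of 2.29, 0.23 and -0.39 between GFPpos and GFPneg cells, beside medians of 1.35, -0.03 and 0.05 over all genes. The high values of the replicate 1 pair were thus shared by genes in general.

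**Figure D3:**
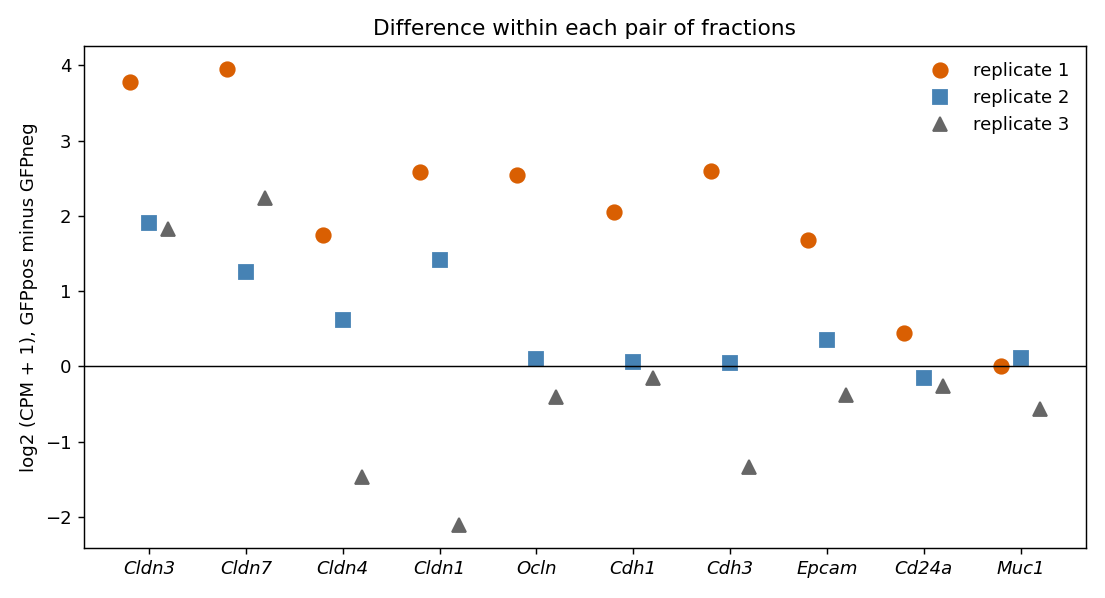
Difference of log2 (CPM + 1) between the GFPpos and the GFPneg library of each pair, for each gene, with replicates 1, 2 and 3 as circle, square and triangle. Cldn3 and Cldn7 lie above 0 in all 3 pairs, while Cldn4 and Cldn1 lie above 0 in replicates 1 and 2 and below it in replicate 3.

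**Figure D4:**
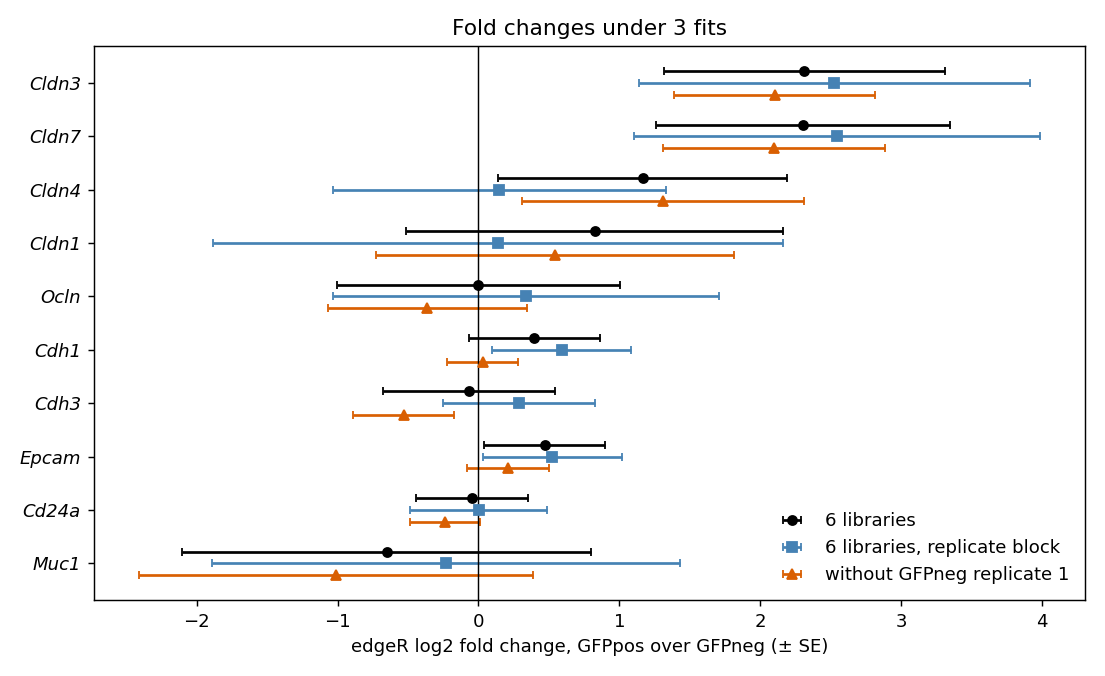
Log2 fold change of GFPpos over GFPneg cells from edgeR with its SE (bars) for each gene, over 6 libraries (circles), with the replicate block (squares) and without GFPneg replicate 1 (triangles). Cldn3 and Cldn7 lie between 2.10 and 2.55 in all 3 fits, and the bars of Cldn1, Ocln and Muc1 cross 0 in each of them.

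The other genes of the junctions gave few differences of this size. Of 20 other claudin and claudin-domain genes, 6 passed the low count filter, 0 passed the threshold, and 3 had positive and 3 negative log2 values (median -0.06). At an unadjusted p below 0.05, 0 of them were higher and 0 lower. Cldn11 stood at 0, 7.86 and 7.53 CPM in GFPpos and 0, 0.411 and 3.01 CPM in GFPneg libraries, and Cldn12 at 9.33, 14.3 and 14.1 CPM in GFPpos and 0, 24.3 and 23.4 CPM in GFPneg libraries. Cldn15 and Cldn23 stayed at or below 3.81 CPM in every library. Of 24 tight junction scaffold, MARVEL and polarity genes, 23 were tested, 11 with positive and 12 with negative log2 values (median -0.00), and 0 passed. At an unadjusted p below 0.05, 2 were higher (Jam3 and Marveld3) and 1 lower (Amot).

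Marveld3, which encodes a tight junction protein of the occludin family, was higher in each pair. Its level was 19.0, 17.0 and 13.9 CPM in GFPpos libraries, against 3.28, 4.98 and 0.182 CPM in GFPneg libraries (log2 fold change 2.61, SE 1.13, edgeR adjusted p = 0.850). The groups did not overlap, as for 9.53% of all tested genes, higher in GFPpos. The Marveld3 value of GFPneg replicate 1 was 1 count. Jam3, an adhesion molecule also of endothelial and smooth muscle cells, had 10.6, 21.8 and 48.7 CPM in GFPpos and 0, 8.27 and 1.91 CPM in GFPneg libraries (2.65, SE 0.97, edgeR adjusted p = 0.738). Amot, which encodes the junctional protein angiomotin, was lower in each pair, at 14.1, 8.33 and 8.31 CPM in GFPpos and 55.7, 21.3 and 41.3 CPM in GFPneg libraries (-1.91, SE 0.70, edgeR adjusted p = 0.745). The scaffold gene Tjp3 had 6.16, 1.95 and 5.09 CPM in GFPpos and 0, 1.13 and 1.82 CPM in GFPneg libraries. With the replicate block and without the replicate 1 pair, edgeR called Marveld3 (adjusted p = 0.0199) and Jam3 (0.000374) higher and Amot (0.0480) and Jam2 (0.000192) lower, Jam2 being named after its value was seen. That fit of 2 pairs called 2.52% of all genes higher and 1.41% lower, and 0 members of the set, with edgeR adjusted p = 0.206 for Cldn3 and 0.406 for Cldn7.

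Adherens junction and desmosomal genes showed the same lack of calls. Of 11 catenin and nectin genes, 3 had positive and 8 negative log2 values (median -0.04), 0 passed, and unadjusted p was below 0.05 for 1 higher and 1 lower gene. Nectin4, which encodes an epithelial nectin, had 18.7, 26.7 and 2.23 CPM in GFPpos libraries, against 0, 2.67 and 0.638 CPM in GFPneg libraries (log2 fold change 3.39, SE 1.21, edgeR adjusted p = 0.712), and its low GFPpos library was again replicate 3. Ctnnd1 (p120-catenin) rested on 1 library, with 16.0, 14.8 and 17.1 CPM in GFPpos and 262, 17.1 and 14.7 CPM in GFPneg libraries. Ctnnb1, which encodes the beta-catenin that binds E-cadherin, stood at 546, 462 and 367 CPM in GFPpos and 253, 375 and 411 CPM in GFPneg libraries, and Nectin1 at 171, 315 and 156 CPM in GFPpos and 190, 368 and 343 CPM in GFPneg libraries. Of 6 desmosomal plaque genes 5 were tested, 2 with positive and 3 with negative log2 values (median -0.09), and 0 passed or had an unadjusted p below 0.05. Desmoplakin (Dsp) stood at 2395, 2064 and 1063 CPM in GFPpos and 1075, 1763 and 1530 CPM in GFPneg libraries, and Pkp1 at 354, 459 and 188 CPM in GFPpos and 45.9, 201 and 240 CPM in GFPneg libraries. Jup and Perp had log2 values of -0.24 (SE 0.38) and -0.15 (SE 0.48).

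Of 12 other cadherin genes 6 were tested, 2 with positive and 4 with negative log2 values (median -1.40), and 0 passed. At an unadjusted p below 0.05, 2 were lower. Cdh11, a cadherin of mesenchymal cells, had 0, 0.311 and 0 CPM in GFPpos and 3.28, 5.03 and 8.29 CPM in GFPneg libraries (edgeR adjusted p = 0.637, DESeq2 adjusted p = 0.0249). Cdh13, which encodes T-cadherin, had 12.8, 26.7 and 47.8 CPM in GFPpos and 105, 78.0 and 89.7 CPM in GFPneg libraries (log2 fold change -1.63, SE 0.56, edgeR adjusted p = 0.667). The groups of Cdh11 and Cdh13 did not overlap, as for 3.63% of all tested genes, lower in GFPpos. The Cdh11 value of GFPneg replicate 1 was 1 count. The neural cadherin gene Cdh10 had 0.362, 5.68 and 1.66 CPM in GFPpos and 0, 10.9 and 29.2 CPM in GFPneg libraries. Cdh5, the endothelial cadherin, was at 260, 205 and 644 CPM in GFPpos and 249, 177 and 145 CPM in GFPneg libraries. Using the block and pairs 2 and 3 alone, edgeR called Cdh5 higher (adjusted p = 0.0141) and Cdh13 (0.0304) and Cdh19 (3.65e-06) lower, and Cdh19 was also called lower without GFPneg replicate 1 (0.0302). Cdh19 is named after its values were seen.

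Genes of proteases including matriptase, which cleaves EpCAM in the gut, and of their inhibitors were also counted. Of 5 such genes 4 had positive and 1 a negative log2 value (median 0.28), and 0 passed or had an unadjusted p below 0.05. St14, which encodes matriptase, stood at 118, 99.4 and 59.7 CPM in GFPpos and 62.3, 60.7 and 50.9 CPM in GFPneg libraries, and the values of its inhibitor gene Spint1 overlapped, at 16.6, 23.3 and 8.10 CPM in GFPpos and 9.84, 11.7 and 16.8 CPM in GFPneg libraries. Hpn and Prss8 stayed at or below 6.62 CPM. Of the transmembrane mucin genes, Muc15 stood at 57.8, 53.7 and 27.9 CPM in GFPpos and 0, 30.3 and 54.1 CPM in GFPneg libraries, and Muc13 at 5.80, 2.33 and 0.156 CPM in GFPpos and 0, 1.59 and 14.3 CPM in GFPneg libraries.

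Regulators known to act on these genes were called in neither direction over 6 libraries. Of 14 epithelial transcription and splicing factor genes, 10 had positive and 4 negative log2 values (median 0.27), and 0 passed, and unadjusted p was below 0.05 for 1 higher and 1 lower gene. Klf4 did not overlap between the groups, as for 3.63% of all tested genes, lower in GFPpos. Its level was 120.5, 98.6 and 159 CPM in GFPpos and 190, 228 and 326 CPM in GFPneg libraries (log2 fold change -0.98, SE 0.41, edgeR adjusted p = 0.843). The fit with the replicate block and without the replicate 1 pair called Klf4 lower (edgeR adjusted p = 0.0215). Grhl3, of the grainyhead-like family, had 13.2, 6.38 and 1.61 CPM in GFPpos and 0, 1.75 and 0.273 CPM in GFPneg libraries, and Klf5 had 228, 199 and 135 CPM in GFPpos and 95.1, 156 and 155 CPM in GFPneg libraries. Of 8 repressors of E-cadherin 6 were tested, 3 with positive and 3 with negative log2 values (median 0.41), 0 passed, and 1 was higher at an unadjusted p below 0.05. Snai2, which encodes Slug, had 52.8, 36.0 and 27.3 CPM in GFPpos and 6.56, 87.2 and 139 CPM in GFPneg libraries, and the fit with the replicate block without the replicate 1 pair called it lower (edgeR adjusted p = 7.77e-05). Twist1 had 21.2, 0.700 and 6.59 CPM in GFPpos and 0, 1.28 and 0.0911 CPM in GFPneg libraries, Snai1 3.81, 6.07 and 10.6 CPM in GFPpos and 0, 4.98 and 0.729 CPM in GFPneg libraries, and Tcf3 77.2, 73.0 and 69.4 CPM in GFPpos and 0, 61.8 and 48.2 CPM in GFPneg libraries.

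Markers of epithelial layers and of other cell types are given because claudins and cadherins are shared among such cells. The 6 basal epithelial markers summed to 5769 to 7073 CPM in GFPpos and 7548 to 12070 CPM in GFPneg libraries, with 1 of 6 positive and 0 passing. Myh11 (2072, 1587 and 2656 CPM in GFPpos and 3289, 3807 and 4393 CPM in GFPneg libraries) and Krt14 (1395, 856 and 796 CPM in GFPpos and 1954, 1919 and 1581 CPM in GFPneg libraries) did not overlap between the groups. Of all tested genes, 3.63% were likewise lower in GFPpos without overlap. The 4 luminal keratin markers summed to 259 to 485 CPM in GFPpos and 125 to 267 CPM in GFPneg libraries, with 3 of 4 positive, 0 passing and 1 higher at an unadjusted p below 0.05. That gene, Krt19, was higher in all 3 pairs without overlap (log2 fold change 2.14, SE 0.73, edgeR adjusted p = 0.667). Cldn3 and Cldn7 were so too, as were 9.53% of all genes. Krt19 had 94.1, 122 and 58.2 CPM in GFPpos and 0, 39.3 and 15.1 CPM in GFPneg libraries, and Krt18 had 226, 135 and 92.6 CPM in GFPpos and 68.9, 85.1 and 108 CPM in GFPneg libraries. Krt8 had 144.5, 122.5 and 100 CPM in GFPpos and 45.9, 96.6 and 109 CPM in GFPneg libraries. Krt7 had 20.5, 33.3 and 7.73 CPM in GFPpos and 9.84, 46.1 and 18.4 CPM in GFPneg libraries. Krt18, Krt8 and Krt7 overlapped between the groups and were lower in GFPpos cells in replicate 3. Krt7 and Krt8 are named after their values were seen. With the replicate block and no replicate 1 pair, edgeR called Krt19 higher (adjusted p = 0.000136) and the basal marker Acta2, named after its value was seen, lower (0.0304), and limma-voom called Myh11 lower (adjusted p = 0.0388). The basal sum was above the luminal sum in every library. The part of luminal cells in the values of Cldn3 and Cldn7 was not tested.

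The sum of the epidermal markers was lower in GFPpos than in GFPneg libraries, and in GFPneg libraries it came mostly from Krt1 and Krt10. Their sum over 12 genes was 2.54 to 9.65 CPM in GFPpos and 31.5 to 177 CPM in GFPneg libraries, with 4 of 4 tested negative. Krt1, with 0, 0 and 0.156 CPM in GFPpos and 121, 66.1 and 16.7 CPM in GFPneg libraries, was the 1 marker that fell (edgeR adjusted p = 0.00637), and Krt10 had 2.36, 3.11 and 0.208 CPM in GFPpos and 39.4, 45.2 and 8.20 CPM in GFPneg libraries, and was called lower by DESeq2 (adjusted p = 0.0052). Ivl and Sbsn, also tested, overlapped between the groups. Ivl had 0, 5.68 and 0.675 CPM in GFPpos and 16.4, 3.08 and 4.46 CPM in GFPneg libraries. Sbsn had 0, 0.856 and 1.66 CPM in GFPpos and 0, 3.44 and 0.273 CPM in GFPneg libraries. Ivl and Sbsn are named after their values were seen. The other epidermal markers did not pass the low count filter, and of these Flg and Lce1a1 had no counts. Epidermis also makes Cldn1, Cldn4, Cdh1 and Cdh3, and the part of epidermal cells in their values was not tested.

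The sums of endothelial and of pericyte markers were highest in GFPpos replicate 3, while Vwf, Kdr and Tek were each highest in a GFPneg library. Among GFPpos libraries, replicate 3 was the lowest for Cldn1, Cldn3, Cldn4, Cldn7, Cdh1, Cdh3 and Epcam, and not for Ocln, Cd24a and Muc1. The 9 endothelial markers summed to 944, 814 and 2340 CPM in GFPpos and 1813, 924 and 557 CPM in GFPneg replicates 1, 2 and 3, with 6 of 9 positive and 0 passing over 6 libraries. Pecam1 had 368, 324 and 981 CPM in GFPpos and 718, 242 and 176 CPM in GFPneg libraries. Using the block and pairs 2 and 3 alone, edgeR called 3 endothelial markers higher, namely Pecam1 (adjusted p = 0.00132), Vwf (0.000343) and Cdh5 (0.0141), and the pericyte marker Cspg4 (0.0184). Vwf had 123, 114 and 272.5 CPM in GFPpos and 643, 128 and 18.1 CPM in GFPneg libraries, so that it was higher in replicate 3 only. Over 6 libraries the log2 values of Vwf (-0.59), Kdr (-0.59) and Tek (-0.73) were negative. These 3 genes are named after their values were seen. The 6 pericyte markers summed to 69.4, 60.4 and 335 CPM in GFPpos and 0, 61.0 and 76.4 CPM in GFPneg libraries, with 3 of 4 tested positive and 2 of them at an unadjusted p below 0.05, Rgs5 at 38.8, 23.7 and 164 CPM in GFPpos and 0, 27.2 and 29.5 CPM in GFPneg libraries, and Cspg4 at 21.9, 24.2 and 102 CPM in GFPpos and 0, 18.4 and 16.3 CPM in GFPneg libraries. Their part in the claudin values was not tested. Without GFPpos replicate 3 the log2 fold changes of Cldn4 and Cldn1 were 1.72 and 1.40, and 0 members passed (edgeR adjusted p = 1 for both genes).

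Fibroblast markers summed to 233 to 370 CPM in GFPpos and 666 to 1637 CPM in GFPneg libraries, with 5 of 5 tested negative, 4 of them at an unadjusted p below 0.05, 0 passing over 6 libraries and Lum at 0 in all. Postn had 325, 199 and 280 CPM in GFPpos and 302, 1152 and 1469 CPM in GFPneg libraries, and Dcn 3.26, 1.63 and 0 CPM in GFPpos and 0, 60.9 and 7.84 CPM in GFPneg libraries. Postn was called lower without GFPneg replicate 1 (edgeR adjusted p = 0.00378) and by limma-voom (adjusted p = 0.0022). Using the replicate block and leaving out the replicate 1 pair, edgeR called both Postn (adjusted p = 1.05e-09) and Dcn (8.91e-12) lower. The 6 Schwann cell markers summed to 106 to 188 CPM in GFPpos and 184 to 875 CPM in GFPneg libraries, with 2 of 4 tested negative, 0 passing without the replicate block and 2 lower with it. Immune markers summed to at most 15.8 CPM in GFPpos and 23.0 CPM in GFPneg libraries, with Csf1r at 0. Neutrophil and erythroid markers, of cells that also carry CD24, summed to at most 0.467 CPM in GFPpos and 1.80 CPM in GFPneg libraries, beside the 128 to 232 CPM of Cd24a. How far fibroblasts and Schwann cells enter the values of the set was not tested.

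For Cldn4, Cdh1 and Epcam the 3 genes closest in pattern were sought among 8057 genes with a mean of at least 10 CPM. Likeness was the root mean square difference of centred log2 (CPM + 2) values over the 6 libraries, in log2 units. Those closest to Epcam were Cstf2 (0.043), Prcc (0.076) and Taf1d (0.086), against a median distance of 0.80. For Cdh1 they were Rock1 (0.075), Trip10 (0.084) and Atf2 (0.084), against a median of 0.77. Cldn4 had no gene as close, with Pappa (0.57), Prrg4 (0.58) and Mapk8ip1 (0.62) against a median of 1.49. None of the 9 genes is a member of a list above. GFPneg replicate 1 was the lowest library for both Epcam and Cdh1.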

How the data were processed

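Paired-end RNA-seq libraries were made from sorted basal cells. The authors deposited raw counts per gene symbol, 1 file per library, with no normalization. Build mm10 and the tools TopHat2, HTSeq, cutadapt and FastQC are named in the submitters' processing notes. No source used here gives their versions, the annotation release or the strand setting. The 5 summary rows of each file were left out of library sizes, and reads in no feature made up 28.8% to 66.4% of the counted total.

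Counts of all 51826 symbols were filtered with filterByExpr (13873 genes kept), scaled by TMM and tested with edgeR 4.0.16's quasi-likelihood test in R 4.3.3, with Benjamini-Hochberg adjustment and a threshold of 0.05. DESeq2 1.42.0, limma 3.58.1 (voom), other scalings and filters, and leaving out libraries were alternatives. CPM values were computed here from the TMM-scaled library sizes. Exact tests used scipy 1.17.1. Positions and exon lengths came from the GENCODE annotation of mm10, and promoter sequences from RefSeq (GRCm38.p6, matched by symbol for 7 of 10 members). The fit was tested on simulated data.

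The members and gene lists were chosen with earlier results of these data known. Named genes were all members, then genes past the threshold and those with the smallest p until 4 per list (2 for other cell types) were named, and a few of these are not reported here. Both fractions of a replicate came from 1 pool, so that replicate numbers pair the libraries by design. Deviations from the group means correlated at -0.04, 0.12 and -0.0013 in pairs 1, 2 and 3. Libraries are pools of mice. The p-values of the fits rest on a spread between pools that is shared over genes, and not on that of each gene alone. The fit with the block on pairs 2 and 3 alone had little spread per gene to draw on, so that its small p-values do not measure how single genes vary between pools.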

Additional observations from a re-analysis of the deposited data

How the results depend on the processing

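The log2 fold changes of Cldn3 (2.10 to 2.84) and Cldn7 (1.97 to 3.38) stayed positive and those of Epcam did not turn negative under the alternatives run, and 0 members passed under any of them. With the replicate block that uses the pairing, 43 genes were higher and 18 lower in GFPpos cells, against 8 and 1 without it. The counts of genes higher and lower were 50 and 48 with DESeq2, 91 and 61 with DESeq2 and the block, 54 and 24 with limma-voom, 65 and 236 with no low count filter, 0 and 0 with at least 10 CPM in 3 libraries, and 386 and 216 with the block and without the replicate 1 pair. Scaling by library size only gave 5 higher, and moved the median of all genes to 0.31, against 0.15. Leaving out libraries gave 2 to 63 higher and 1 to 68 lower, the 63 without GFPneg replicate 1. The members' median was 0.43 and lay at -0.22 with limma-voom and at -0.17 with the block without the replicate 1 pair. These log2 values changed sign, and the cause was not tested. With limma-voom they were Cldn4 (-0.22) and Cldn1 (-0.81). With the block and without the replicate 1 pair they were Cldn4 (-0.62), Cdh1 (-0.031), Cldn1 (-1.10), Ctnnd1 (0.025), Dsp (-0.13), Spint1 (-0.00034) and Muc15 (-0.042). With the replicate block they were Cd24a (0.0018), Cdh3 (0.29), Ocln (0.34), Cldn12 (0.0032) and Perp (0.083), and with DESeq2 and the block Cdh3 (0.31), Ocln (0.30) and Perp (0.056). With library size only they were Cd24a (0.12), Ocln (0.075) and Jup (0.023). Ocln was also at 0.0058 with DESeq2, 0.011 with RLE size factors, 0.029 with no filter and 0.014 without the 5 abundant features. When libraries were left out, the ranges that crossed 0 were -0.028 to 0.73 (Cdh1), -0.37 to 1.55 (Cldn1), -2.14 to 1.12 (Muc1), -0.24 to 0.11 (Cd24a), -0.53 to 0.54 (Cdh3) and -0.49 to 0.48 (Ocln). Among other genes they were -1.76 to 0.12 (Cldn15), -3.13 to 0.024 (Ctnnd1), -0.054 to 0.65 (Dsp), -0.54 to 0.056 (Jup), -0.55 to 0.58 (Perp), -0.17 to 8.01 (Prss8), -1.53 to 0.43 (Hpn), -0.15 to 0.87 (Spint1), -2.65 to 1.71 (Muc13), -0.024 to 1.66 (Muc15) and -0.46 to 1.66 (Pecam1). The log2 ratio of Cdh3 to Cdh1 lay between -0.67 and 0.028, and that of Epcam to Cdh1 between -0.25 and 0.15. The depth of GFPneg replicate 1 limits every member below 9.84 CPM.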
